A study of Homo sapiens with 8 samples.

Results

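Guides against 39 genes of tRNA charging were followed through a pooled knockout screen: 20 cytosolic aminoacyl-tRNA synthetases, 16 mitochondrial ones and the 3 scaffold proteins of the multi-synthetase complex, AIMP1, AIMP2 and EEF1E1. They were taken by gene symbol from the 18913 genes that the guide library targets. Symbols ending in 2 were read as mitochondrial, and the older symbols of the library are kept throughout. Each member had 6 guides, 234 in all, of which 227 had enough reads to be tested.

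The screen asked which gene losses change the fitness of MB157R cells, a GSI-resistant derivative of the triple-negative breast cancer line MB157 that carries a stably integrated Cas9, when Notch signalling is blocked. A γ-secretase inhibitor (GSI) stops the cleavage that activates Notch receptors. Cells carrying the GeCKOv2 guide library were pooled after puromycin selection, 2 aliquots were frozen as T0, and the remainder was grown as 3 cultures with the solvent DMSO and 3 with the GSI LY3039478 at 10 µM up to day 14. All 8 libraries share the resistant background, Cas9, and blasticidin and puromycin selection, and they come from 1 transduced pool, so p-values measure only the spread between aliquots and cultures of that pool.

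Aminoacyl-tRNA synthetases join each amino acid to its tRNA and so supply every ribosome. Cytosolic enzymes serve translation of nuclear genes, and a separate set, encoded in the nucleus and imported, serves the mitochondrial ribosomes that make core subunits of the respiratory chain. GARS and KARS supply both compartments from a single gene. Several cytosolic enzymes are held in one large complex by AIMP1, AIMP2 and EEF1E1, which do not charge tRNA themselves. The loss of a guide from a growing culture is the usual readout of a gene that the cells need.

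The libraries held 12.1 to 18.2 M (mega) reads. In GSI culture 1 a single guide took 38.8% of the reads, so the members were measured there at a lower effective depth. The T0 aliquots were uneven: 32.9% of the members' guides differed by more than 4-fold between them, against 33.5% of all guides, and 26 member guides had no read in one aliquot and some in the other. By class this share was 28.3% of cytosolic, 35.4% of mitochondrial and 50% of the 18 scaffold guides. Between DMSO cultures the mean share of member guides more than 4-fold apart was 23.1%, against 15.6% of all guides, and between GSI cultures it was 19.5% against 9.33%. No guide sequences were used here.

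Guides against both classes of enzyme were scarcer at day 14 than at T0, while guides against the scaffold proteins were not. Counts were divided by a size factor per library (the median ratio of its guides to their geometric means), which gives the normalized count used for all levels here. The median normalized count of the 120 guides against cytosolic enzymes was 97.1 and 75.9 at T0, and 55.3, 42.4 and 47.8 in the 3 DMSO cultures. For the 96 guides against mitochondrial enzymes it was 104 and 77.3 at T0, and 47.7, 54.6 and 45.6 with DMSO. In both classes every DMSO culture lay below both T0 aliquots.

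With GSI the mitochondrial median stood above its DMSO values, though the size of this depended on the guides used, as given below. The cytosolic median was 57.9, 49.3 and 46.5 in the 3 GSI cultures, or 51.2 ± 5.96 (mean ± SD, n = 3) against 48.5 ± 6.48 with DMSO, and the arms overlapped. The mitochondrial median was 60.6, 67.5 and 65.8 with GSI, or 64.6 ± 3.61 against 49.3 ± 4.74 with DMSO. Every GSI culture lay above every DMSO culture and below both T0 aliquots. The 18 scaffold guides had medians of 93.3 and 88.3 at T0, 95.3, 116 and 110.5 with DMSO and 86.9, 104 and 120.1 with GSI. All guides against genes had medians from 87.3 to 92.0 in every library.

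**Figure D1:**
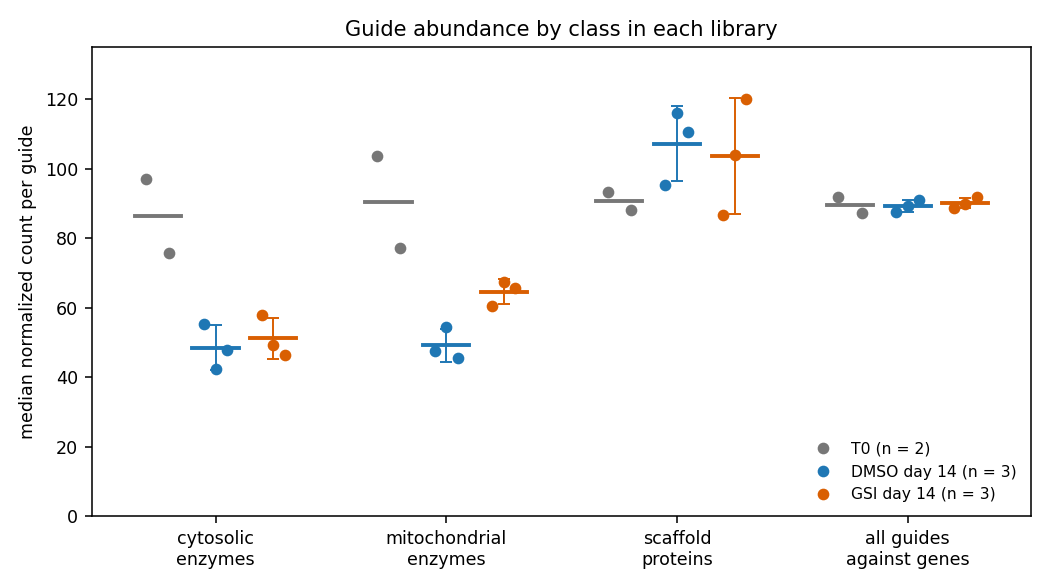
Median normalized count per guide (y axis) of cytosolic enzymes, mitochondrial enzymes, scaffold proteins and all guides against genes (x axis) in each library; dots are libraries, thick lines group means and bars the SD over 3 cultures. The mitochondrial median was 64.6 with GSI and 49.3 with DMSO, while the cytosolic medians of the arms, 51.2 and 48.5, overlap.

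For each gene, a log2 fold change was taken as the median over its guides and is given with their SD. Guides were tested with edgeR's quasi-likelihood test, and genes by robust rank aggregation (RRA) of the guide p-values, adjusted by the Benjamini-Hochberg method over 18570 genes. In DMSO against T0, 17 of 20 cytosolic enzymes had a negative fold change, with a median of -0.93 (range -2.55 to 0.16). The exceptions were QARS, TARS and WARS. Of 16 mitochondrial enzymes 14 were negative, with a median of -0.77 (range -2.30 to 0.24), all but LARS2 and RARS2. The 3 scaffold genes lay between 0.04 and 0.38. Over all genes tested 49.6% were negative and the median was 0.00.

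A fold change under -1 was found for 8 cytosolic enzymes, among them YARS, HARS, FARSA, FARSB, KARS, MARS and IARS, and for 5 mitochondrial ones (IARS2, AARS2, YARS2, SARS2 and MARS2), where 4.84% of all genes reached it. In 12 cytosolic and 8 mitochondrial enzymes every DMSO culture had a lower median count than both T0 aliquots, against 14.1% of all genes. None of the 39 members was called lower at an adjusted p under 0.05 by edgeR and RRA, nor with DESeq2 in place of edgeR. With edgeR that call was made for 0.0323% of all genes, and DESeq2 called 7 genes in either direction. At an unadjusted p under 0.05, 7 cytosolic and 7 mitochondrial enzymes were lower, against 6.12% of all genes, and DESeq2 gave the same counts, 7 and 7.

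The size of these shifts depended on single libraries, both T0 aliquots and day 14 cultures. Without T0 replicate 1 the cytosolic median, taken relative to all genes, was -0.61 and the mitochondrial one -0.37, and without DMSO replicate 1 the mitochondrial enzymes at an unadjusted p under 0.05 numbered 4.

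**Figure D2:**
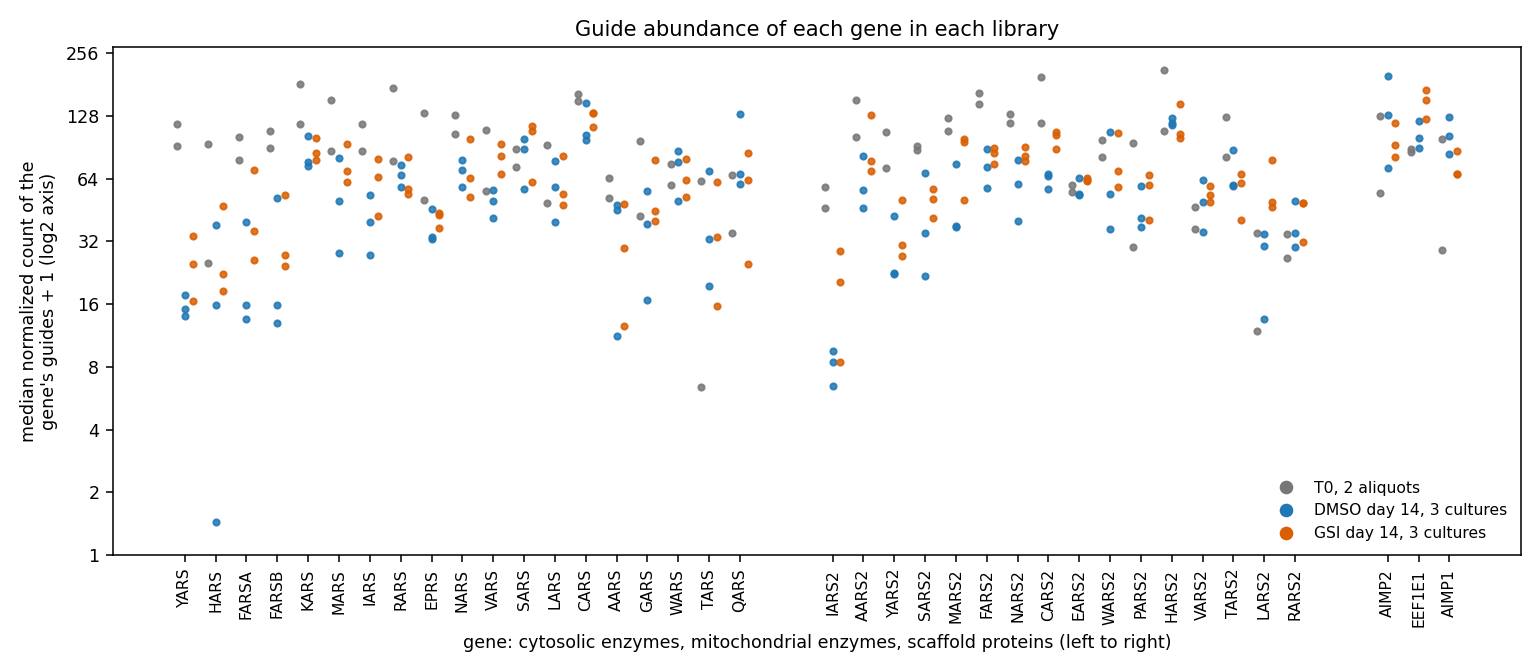
Median normalized count of each gene's guides plus 1 (y axis, log2 scale) for single members (x axis, ordered within class by the fold change of DMSO against T0) in the 2 T0 aliquots, 3 DMSO and 3 GSI cultures. The DMSO and GSI points of YARS and KARS lie below both T0 points, whereas those of EEF1E1 lie above them.

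YARS, the tyrosine enzyme outside the complex, had the most negative fold change of the members with DMSO. Its counts were 117 and 90.6 at T0, 14.2, 16.7 and 13.1 with DMSO, and 33.0, 23.8 and 15.7 with GSI. No day 14 culture reached either T0 aliquot. The fold change was -2.55 ± 2.45 with DMSO and -2.17 ± 1.76 with GSI (edgeR and RRA, adjusted p = 0.315 and 0.286). The guides disagreed: those of library part A alone gave -3.69 with DMSO and those of part B 0.04. Over guides whose T0 counts lay within 4-fold of each other, a setting chosen after seeing the data, the GSI value had an adjusted p of 0.0457.

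VARS charges valine. It was 108 and 54.6 at T0, 48.8, 55.5 and 40.4 with DMSO, and 66.7, 93.0 and 81.5 with GSI. One DMSO culture passed the lower T0 aliquot, and every GSI culture lay above every DMSO culture. The fold change was -0.83 ± 2.80 with DMSO (edgeR and RRA, adjusted p = 0.316) and -0.91 ± 2.19 with GSI (adjusted p = 0.813), and 3 of its 6 guides were negative. Its part B guides alone gave 0.86 for DMSO against T0, and guides with a mean count of at least 50 gave 1.01 relative to all genes, so its direction rests on the guides used.

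MARS, the methionine enzyme, had all 6 guides negative with DMSO and with GSI. Its counts were 151 and 85.4 at T0, 79.4, 27.1 and 49.0 with DMSO, and 92.9, 60.8 and 68.4 with GSI. The DMSO cultures lay below T0 and the GSI cultures overlapped it. The fold change was -1.27 ± 1.22 with DMSO and -0.50 ± 1.38 with GSI (edgeR and RRA, adjusted p = 0.586 and 0.924).

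EPRS joins glutamate and proline to their tRNAs with a single protein. It stood at 131 and 49.8 at T0, 44.9, 32.5 and 31.9 with DMSO, and 41.8, 36.2 and 42.8 with GSI. All 6 cultures lay below T0, and the T0 aliquots were themselves further apart than any pair of cultures. Its fold change was -0.98 ± 1.42 with DMSO and -1.04 ± 1.46 with GSI (edgeR and RRA, adjusted p = 0.683 and 0.689).

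The enzymes that serve both compartments differed in level. KARS, which charges lysine, had counts of 181 and 116 at T0, 72.3, 76.3 and 101 with DMSO, and 77.4, 83.8 and 99.2 with GSI, all 6 cultures below T0. Its fold change was -1.46 ± 2.12 with DMSO and -0.66 ± 1.46 with GSI. The unadjusted p was 0.0274 and 0.106 and the adjusted p 0.681 and 0.961 (edgeR and RRA). KARS guides of part A alone gave -0.50 with DMSO and -0.10 with GSI, and those of part B -2.42 and -2.20. GARS, which charges glycine, had counts of 95.8 and 41.3 at T0, 37.8, 15.8 and 54.7 with DMSO, and 39.1, 77.9 and 43.9 with GSI. The GARS groups overlapped, and its fold changes were -0.26 ± 1.51 and 0.05 ± 1.31. Leaving GARS and KARS out, the other 18 cytosolic enzymes had a median of -0.93 with DMSO and -0.72 with GSI.

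QARS, the glutamine enzyme of the complex, had the highest fold change of the cytosolic set with DMSO. It was 65.7 and 34.2 at T0, 59.2, 130.0 and 66.1 with DMSO, and 62.0, 23.8 and 84.1 with GSI. The groups overlapped, and the fold change was 0.16 ± 2.28 with DMSO and -0.62 ± 1.22 with GSI. Without DMSO replicate 2 the former was -0.61 relative to all genes.

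The 8 enzymes of the complex had a median fold change of -1.05 with DMSO and the 12 cytosolic enzymes outside it -0.81. With GSI the medians were -0.63 and -0.85, so the order of these subgroups was not the same in both arms. By the fold of the catalytic domain, cytosolic class I enzymes had a median of -0.90 and class II of -1.17 with DMSO, and mitochondrial ones of -0.77 and -0.89. EPRS, which carries a domain of each class, was counted in class I, and without it the cytosolic class I median was -0.83. FARSA and FARSB, the subunits of the phenylalanine enzyme, had fold changes of -2.10 ± 3.50 and -1.66 ± 2.11 with DMSO. Both had a median count below T0 in every culture of either arm. The guides disagreed with DMSO: parts A and B alone gave -3.52 and -0.69 for FARSA and -2.46 and 0.27 for FARSB.

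None of the scaffold genes had a negative fold change with DMSO, but their direction rested on single libraries or guides. Relative to all genes AIMP2 was at -0.91 without T0 replicate 1, -0.35 without DMSO replicate 2 and -0.28 without DMSO replicate 3, and EEF1E1 at -0.12 without T0 replicate 1 and -0.14 without DMSO replicate 2. The part A guides of AIMP1 gave 1.47 and its part B guides -0.54. AIMP1 was 98.7 and 28 at T0, 83.3, 125 and 101 with DMSO, and 66.7, 66.4 and 85.6 with GSI. AIMP2 was 53.5 and 127 at T0, 70.7, 197 and 128 with DMSO, and 80.1, 117 and 91.4 with GSI. For both genes the cultures overlapped T0, and the T0 aliquots differed more than 2-fold.

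EEF1E1 was 84.5 and 88.3 at T0, 120.0, 88.5 and 99.1 with DMSO, and 152, 122 and 169.7 with GSI. Here the median of every culture stood above T0, the second DMSO culture barely so, and every GSI culture above every DMSO culture. The EEF1E1 guides disagreed in GSI against T0, where part A alone gave -0.67 and part B 0.59. Fold changes for AIMP1, AIMP2 and EEF1E1 were 0.38 ± 3.71, 0.04 ± 1.50 and 0.07 ± 0.72 with DMSO, and 0.02 ± 3.68, -0.30 ± 1.11 and 0.12 ± 1.00 with GSI. None of their 18 guides was lower at an unadjusted p under 0.05 in either comparison.

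Among mitochondrial enzymes, AARS2, which charges alanine, had the lowest p with DMSO. Its counts were 152 and 100.1 at T0, 45.5, 81.2 and 55.2 with DMSO, and 68.7, 128 and 76.8 with GSI. The DMSO cultures lay below T0 and the GSI cultures overlapped it. The fold change was -1.44 ± 2.15 with DMSO and -0.76 ± 1.49 with GSI (edgeR and RRA, adjusted p = 0.314 and 1). No single AARS2 guide was lower at an unadjusted p under 0.05.

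FARS2, the mitochondrial phenylalanine enzyme, was 163 and 145 at T0, 57.0, 71.8 and 87.7 with DMSO, and 84.2, 89.0 and 74.1 with GSI. YARS2, its counterpart for tyrosine, was 106 and 71.2 at T0, 21.4, 21.7 and 41.6 with DMSO, and 49.8, 29.8 and 26.1 with GSI. In both genes all 6 cultures lay below both T0 aliquots. FARS2 had fold changes of -0.97 ± 2.83 and -0.72 ± 1.45 and YARS2 of -1.40 ± 1.27 and -2.18 ± 1.59 with DMSO and GSI. Their adjusted p-values (edgeR and RRA) were 0.488 and 0.632 for FARS2, and 0.519 and 0.81 for YARS2.

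IARS2, the isoleucine enzyme, had the most negative mitochondrial fold change with DMSO, -2.30 ± 1.81. Its counts were low, at 57.3 and 45.1 at T0, 5.48, 8.58 and 7.4 with DMSO, and 7.41, 19.5 and 27.7 with GSI. Every culture lay below T0, with a fold change of -1.21 ± 1.53 for GSI. At the other end RARS2, the arginine enzyme, was 33.9 and 25.6 at T0, 29.0, 48.7 and 34.2 with DMSO, and 47.8, 47.7 and 30.8 with GSI. The RARS2 groups overlapped. Its fold change was 0.24 ± 2.06 with DMSO and 1.11 ± 1.84 with GSI, and without T0 replicate 1 the former was -0.02 relative to all genes. RARS2 guides of part A alone gave -0.89 with DMSO and -0.93 with GSI, and those of part B 2.26 and 1.73.

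Guides of 1 gene did not all point the same way. In DMSO against T0, all tested guides were negative in 3 cytosolic and 4 mitochondrial enzymes. Guides lower at an unadjusted p under 0.05 numbered 17 of 115 cytosolic (14.8%), 11 of 94 mitochondrial (11.7%) and 0 of 18 scaffold guides, against 3.6% of all guides against genes. The mitochondrial count was 18 without T0 replicate 1, 5 without DMSO replicate 1 and 6 without DMSO replicate 3, and the cytosolic one lay between 12 and 24 over all libraries left out in turn. No guide against a gene had an adjusted p under 0.05 in the edgeR test. The part A and part B guides of the library were both negative on the median in 10 of 20 cytosolic and 11 of 16 mitochondrial enzymes. No share over all genes is given for this count or for genes with all guides negative, so neither is read as particular to the members. Of single tested guides 71.3% were negative for cytosolic and 75.5% for mitochondrial enzymes, against 50.1% of all guides against genes.

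Single guides reached far larger values in both directions. A FARS2 guide had normalized counts of 141 and 73.1 at T0, 1.10, 0 and 0 with DMSO, and 9.43, 11.1 and 12.5 with GSI. A WARS2 guide had none at T0, then 69.0, 25.3 and 22.8 with DMSO, and 18.9, 15.9 and 3.13 with GSI. An AIMP1 guide with no read in either T0 aliquot had 51.5, 30.7 and 27.3 with DMSO. In all, 8 member guides had no read in both T0 aliquots.

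**Figure D3:**
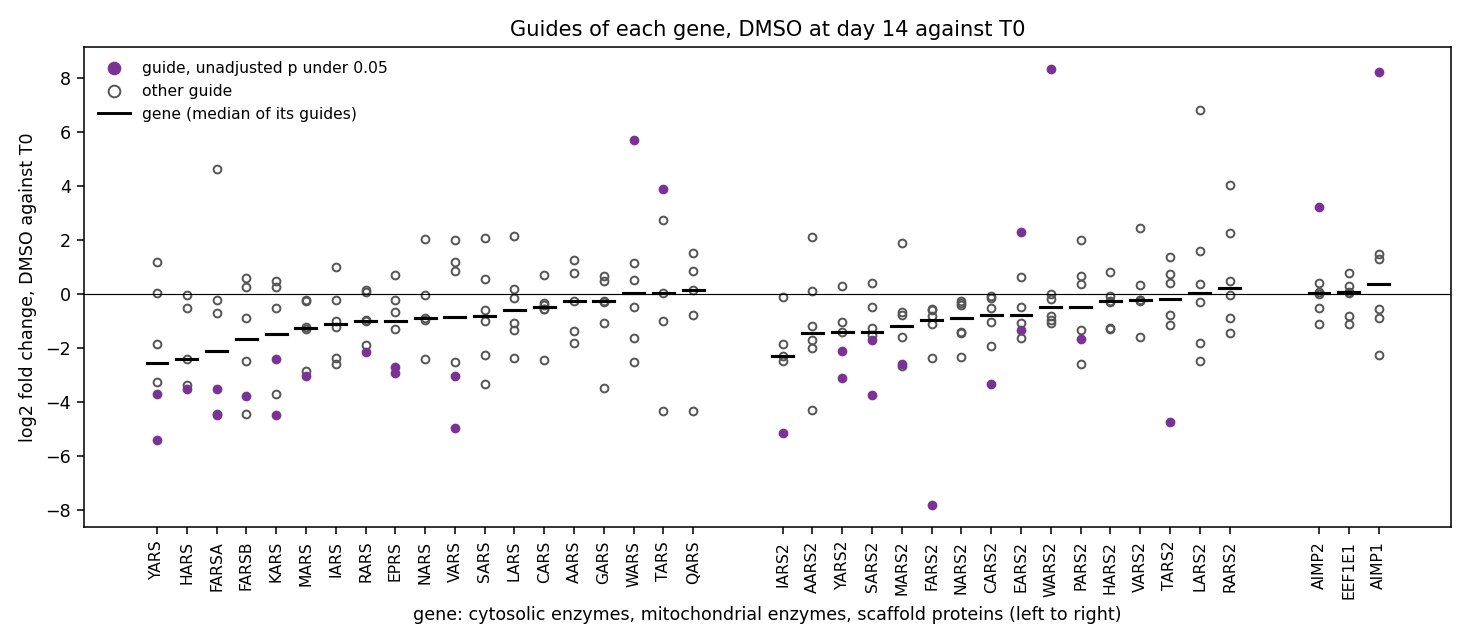
Log2 fold change of DMSO against T0 (y axis) for each tested guide (circles; filled where the unadjusted p was under 0.05) and for each gene as the median of its guides (bars), by gene and class (x axis). All MARS guides lie below 0, while the guides of WARS2 and AIMP1 with no T0 read lie above 8.

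In GSI against T0, which shares the T0 libraries with the previous comparison, 19 of 20 cytosolic enzymes had a negative fold change, all but GARS, with a median of -0.65 (range -2.17 to 0.05). Of the mitochondrial enzymes 12 of 16 were negative, with a median of -0.44 (range -2.18 to 1.11), and the scaffold median was 0.02. Over all genes 51.3% were negative. A fold change under -1 was found for 6 cytosolic enzymes, among them YARS, HARS, FARSB, NARS and EPRS, and for 2 mitochondrial ones (YARS2 and IARS2), against 3.5% of all genes.

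Every GSI culture lay below both T0 aliquots in 10 cytosolic and 8 mitochondrial enzymes, against 14.3% of all genes. Every GSI culture lay above T0 in 3 mitochondrial enzymes (EARS2, LARS2 and VARS2) and in no cytosolic one, against 15% of all genes. No member was called lower at an adjusted p under 0.05 by edgeR and RRA or with DESeq2. Of all genes 0% were called lower with edgeR, and DESeq2 called 2 genes in either direction. At an unadjusted p under 0.05, 5 cytosolic enzymes, among them YARS, EPRS, NARS and VARS, and 3 mitochondrial ones (FARS2, YARS2 and CARS2) were lower, against 5.7% of all genes, and with DESeq2 these counts were 5 and 4. Guides lower at an unadjusted p under 0.05 numbered 17 cytosolic, 9 mitochondrial and 0 scaffold guides, against 4.11% of all guides against genes.

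These counts, too, moved when single T0 or GSI libraries were left out. Without T0 replicate 1 the enzymes at an unadjusted p under 0.05 were 3 cytosolic and 1 mitochondrial, and without T0 replicate 2 there were 8 cytosolic ones and the mitochondrial median relative to all genes was -0.24. Guide counts moved further. Cytosolic guides numbered 29 without T0 replicate 2 and 10 without GSI replicate 3. Mitochondrial guides numbered 19 without T0 replicate 1, 17 without T0 replicate 2, 4 without GSI replicate 1, 4 without GSI replicate 2 and 5 without GSI replicate 3.

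For an amino acid served by separate enzymes in each compartment, 17 pairs could be set side by side (FARS2 with both FARSA and FARSB, and EPRS with both EARS2 and PARS2). In DMSO against T0 both enzymes were negative in 13 pairs, and the cytosolic one was the lower in 10. For pairs no matching share over all genes is given in any comparison, so these counts are description only. The difference, cytosolic minus mitochondrial, had a median of -0.21 and ran from -2.13 to 1.19. The ends were histidine, with HARS at -2.39 and HARS2 at -0.26, and isoleucine, with IARS at -1.11 and IARS2 at -2.30. Tyrosine had both enzymes far below 0, methionine had them nearly level (MARS at -1.27, MARS2 at -1.18), and for alanine AARS at -0.26 stood above AARS2 at -1.44.

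In GSI against T0 both were negative in 13 pairs and the cytosolic enzyme was the lower in 11, with a median difference of -0.28. Arginine gave the most negative difference, -1.75, with RARS at -0.64 and RARS2 at 1.11, though part A guides of RARS2 alone gave -0.93. For HARS and HARS2 the pair is also one of position: in RefSeq annotation of GRCh38 they lie 84 bases apart, at chr5:140673905-140691370 and chr5:140691455-140699305. HARS counts were 93.3 and 24.2 at T0, 37.3, 0.451 and 14.8 with DMSO, and 46.5, 17.5 and 21.4 with GSI, so the groups overlapped in spite of the fold change. This pair was picked out after its values were seen.

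**Figure D4:**
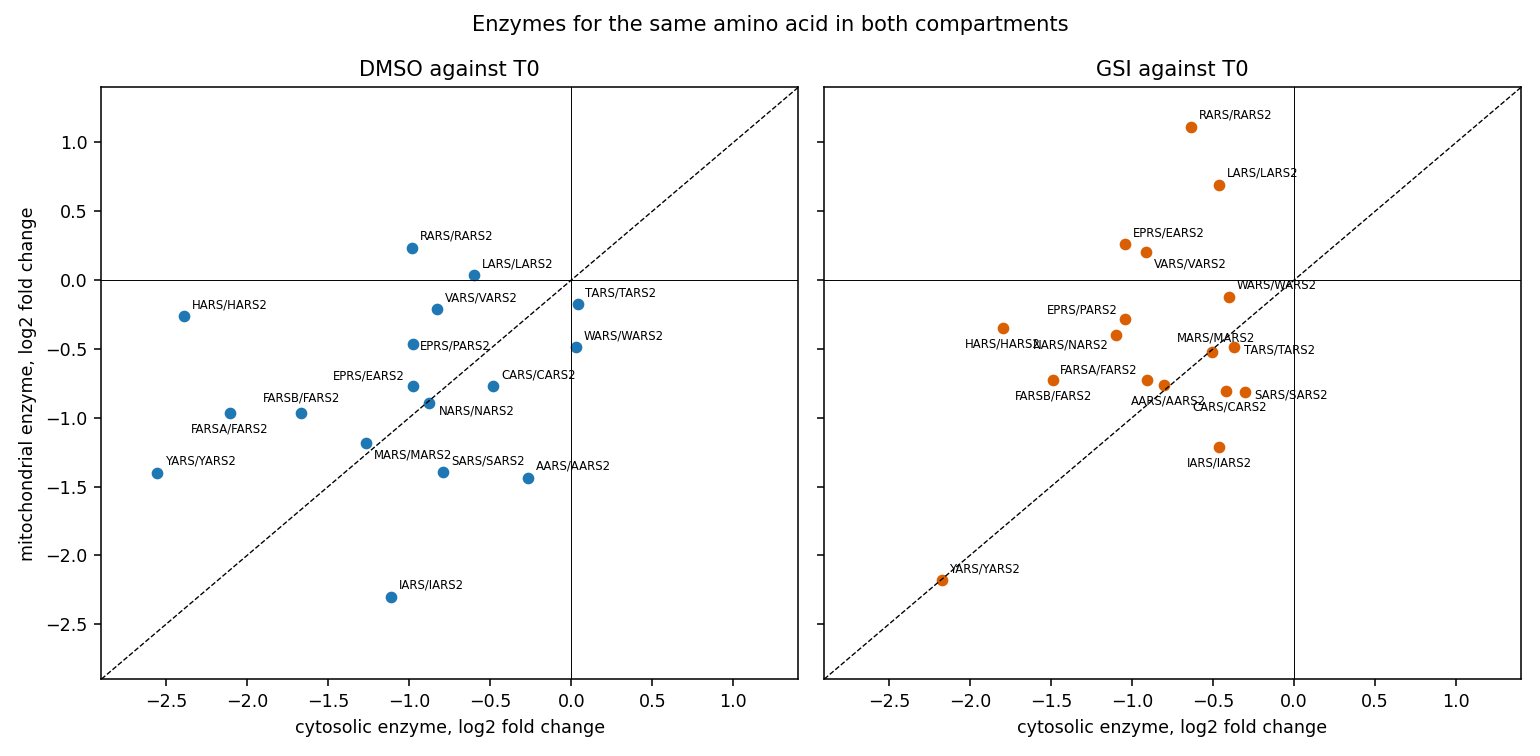
Log2 fold change of the mitochondrial enzyme (y axis) against that of the cytosolic enzyme for the same amino acid (x axis), for DMSO against T0 (left) and GSI against T0 (right); each dot is 1 of 17 pairs and the dashed line marks equal values. Of these, 13 pairs lie below 0 on both axes in each panel, and HARS/HARS2 lies furthest from the line at left.

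The class medians differed by -0.16 (cytosolic minus mitochondrial, DMSO against T0) and by -0.21 (GSI against T0), small next to the spread among genes of a class. The first turned to 0.19 without DMSO replicate 3, and to 0.28 over guides with a mean count of at least 50. No p-value is given for these class values, since the members were chosen with results of these data known.

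GSI against DMSO compares day 14 cultures directly and does not use T0. Fold changes were positive for 13 of 20 cytosolic enzymes, with a median of 0.12 (range -0.54 to 0.68), and for 14 of 16 mitochondrial enzymes, with a median of 0.24 (range -0.27 to 1.26), all but TARS2 and RARS2. The scaffold median was -0.19. Over all genes 47.3% were positive and the median was -0.02. In the 17 amino acid pairs the cytosolic enzyme had the lower value in 13, with a median difference of -0.17.

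No member was called in either direction at an adjusted p under 0.05 by edgeR and RRA or with DESeq2, where 0% of all genes were called lower and 0% were called higher in this contrast. At an unadjusted p under 0.05, 5 members were higher with GSI (KARS, AARS2, CARS2, LARS2 and EEF1E1), against 4.99% of all genes, and none was lower, against 5.06%. DESeq2 gave 1 cytosolic and 3 mitochondrial enzymes in either direction, as edgeR did. Every GSI culture lay above every DMSO culture for VARS, CARS2, LARS2 and EEF1E1, 4 of 39 members against 4.81% of all genes. In no member did every GSI culture lie below every DMSO culture.

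LARS2, the mitochondrial leucine enzyme, had the tightest guides of those at an unadjusted p under 0.05, with a fold change of 0.77 ± 0.29 and none of its 6 guides negative. Its counts were 10.9 and 34.2 at T0, 12.6, 29.3 and 33.6 with DMSO, and 48.5, 45.7 and 77.3 with GSI. The arms did not overlap, and the GSI cultures also lay above T0 (edgeR and RRA, adjusted p = 0.968 for GSI against DMSO). CARS2, which charges cysteine, was 118 and 195 at T0, 64.7, 56.0 and 66.1 with DMSO, and 102, 87.8 and 106 with GSI. Its GSI cultures lay between the DMSO cultures and T0, and its fold change was 0.19 ± 0.95. The CARS2 guides disagreed: 3 of 6 were negative, and part A gave 0.57 and part B -0.18.

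AARS2 had a fold change of 0.73 ± 1.18 for GSI against DMSO, with arms that overlapped (edgeR and RRA, adjusted p = 0.962). IARS2 had the highest value of the members, 1.26 ± 1.36, with no negative guide, and its arms overlapped too. KARS, which serves both compartments, was at 0.54 ± 1.11 (unadjusted p = 0.028, edgeR and RRA, adjusted p = 0.968).

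EEF1E1 had the lowest p on the high side, with 0.49 ± 0.62 (edgeR and RRA, adjusted p = 0.945). AIMP2 and AIMP1 had the lowest p on the low side, with -0.19 ± 0.55 and -0.52 ± 0.23 (adjusted p = 0.985 for both). All 6 AIMP1 guides were negative, the only member for which this held, while its culture medians overlapped between the arms. The 3 scaffold genes therefore lay on both sides of 0.

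**Figure D5:**
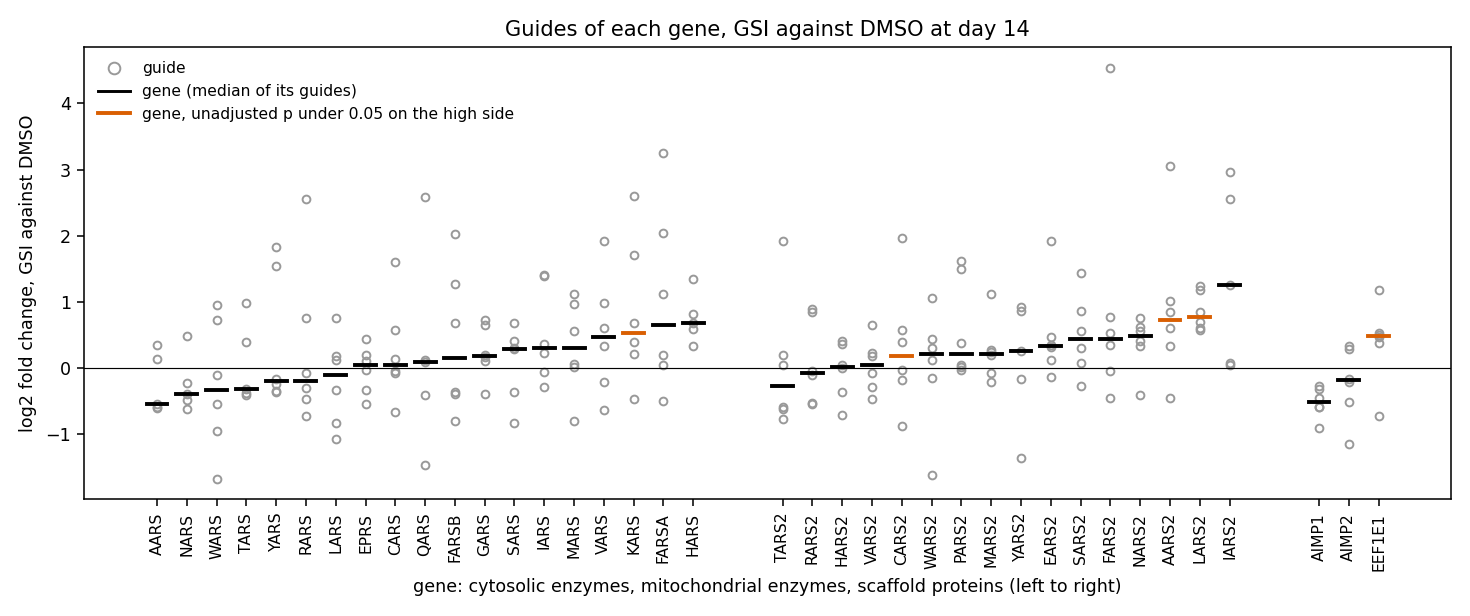
Log2 fold change of GSI against DMSO (y axis) for each tested guide (circles) and each gene as the median of its guides (bars, orange where the unadjusted p on the high side was under 0.05), by gene and class (x axis). Of the mitochondrial bars 14 of 16 lie above 0, and the IARS2 bar is the highest.

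A reading of the arms rests on few libraries and on the guides used. Without DMSO replicate 1 the enzymes at an unadjusted p under 0.05 in either direction numbered 4 cytosolic and 1 mitochondrial, against 1 and 3 with all cultures; without DMSO replicate 2 the mitochondrial median relative to all genes was 0.42. Part A guides alone gave medians relative to all genes of 0.45 (cytosolic) and 0.48 (mitochondrial), and part B guides a mitochondrial median of 0.10. Both parts were positive in 9 of 20 cytosolic and 7 of 16 mitochondrial enzymes, with no share over all genes given. A p that misses the threshold does not show that the arms were alike.

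Ribosomal proteins gave a scale for these values. In DMSO against T0 the median fold change was -1.10 for 75 cytosolic ribosomal proteins and -0.42 for 76 mitochondrial ones, and it was 0.12 for 366 olfactory receptors, the receptors of the sense of smell. The cytosolic synthetases at -0.93 thus lay near the cytosolic ribosome, and the mitochondrial ones at -0.77 below the mitochondrial ribosome. With GSI the medians were -0.82 and -0.27 for the ribosomal sets and 0.09 for olfactory receptors. For GSI against DMSO they were 0.25, 0.16 and -0.01, so cytosolic ribosomal proteins lay as far above 0 as the mitochondrial synthetases at 0.24.

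Other genes of tRNA biology were taken from lists, where a gene is called lower if it had an unadjusted p under 0.05 and a negative fold change in DMSO against T0, as 5.69% of all genes had. With lists this short, 1 or 2 such genes do not set a list apart from that share. Mitochondria lack a glutamine enzyme and convert mischarged glutamate instead, and the 4 genes of that amidation and of formylation of the initiator tRNA were all negative, with a median of -0.60. Of them 2 were lower: QRSL1 at -0.43 and GATC at -0.79, both subunits of the amidotransferase. Of 9 genes of mitochondrial tRNA maturation 2 were lower, MTO1, which modifies the wobble base, at -1.71 and HSD17B10, a subunit of mitochondrial RNase P, at -0.94, and the median was -0.42.

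Of 20 genes of tRNA end processing and splicing 6 were lower and DDX1, a helicase of the tRNA ligase complex, was higher at 0.89, with a median of -0.53. POP1 had a p under 0.05 on the low side with a fold change of 0.94 and is not counted. RTCB, the ligase itself, is left out of these counts, since the library holds guides for it under that name and under the older symbol C22orf28, which gave 0.68 and -1.37. RPP38 at -2.54 and POP4 at -1.19, both proteins of RNase P, had the lowest p. Of 18 tRNA modification genes 2 were lower, METTL1, a 7-methylguanosine transferase, at -1.17 and TRMT61A, a 1-methyladenosine transferase, at -0.86, and the median was -0.28. Of 11 genes that respond to uncharged tRNA or relay the stress 1 was lower, GCN1L1, an activator of the kinase GCN2, at -1.74, and the median was -0.24. EIF2AK3, another kinase of the integrated stress response, had -0.31.

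Of 6 genes of selenocysteine tRNA 2 were lower, EEFSEC, its elongation factor, at -1.17 and SEPHS1 at -0.25, while the median was -0.05 with 3 genes negative and 3 positive. None of 4 genes of export and delivery was lower, with EEF1A1 and TUFM, the cytosolic and mitochondrial elongation factors that carry charged tRNA, at 0.05 and -0.63. No gene of these lists was called at an adjusted p under 0.05 in any of the 3 comparisons.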

How the data were processed

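Guide abundance was measured by sequencing PCR products from genomic DNA of 8 libraries (2 T0, 3 DMSO, 3 GSI). Per the labels, the authors prepared reads with bcl2fastq 2.19 and FastQC 0.11.5 and assigned them to guides with MAGeCK 0.5.9.2. The deposited table holds the raw read count per guide, for 119461 guides of library parts A and B, and a second deposited table gives a signal per guide that the authors made by multiplying each library's counts by 1 constant, which was not used here.

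Analysis used R 4.3.3, and figures matplotlib 3.10.9. Guides with a mean count of at least 10 were kept (116852). Each comparison was fitted on its own libraries with edgeR 4.0.16 (limma 3.58.1), with median-ratio size factors. Genes with at least 4 tested guides (18570) were tested by RRA with alpha 0.25, with p computed from the distribution of uniform order statistics. The per-library value of a gene is the median over its guides. Members and lists were chosen with earlier results of these data known. The genes given with values in every library were those with the lowest p of each class in each comparison, GARS, KARS, the scaffold genes and the highest of each class, except 1 member whose own values are not reported here, and further ones (IARS2, LARS2, CARS2 and HARS) were chosen after their values were seen. The scripts were tested on simulated data.

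Alternatives were TMM factors, library totals, scaling to 1000 non-targeting controls, other count filters, DESeq2 1.42.0, a single fit, a replicate block, RRA alpha, each library left out, single library parts and means over guides. A further 2 were chosen after seeing the data: cytosolic enzymes without GARS and KARS, and only guides with T0 counts within 4-fold. Reads came from PCR with no molecular identifiers, so they are no independent molecules, and their number bounds the counting error alone.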

Additional observations from a re-analysis of the deposited data

How the results depend on the processing

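Values here are relative to the median of all genes. At most 1 member was called in any setting: in GSI against T0 with library totals (count 1), and YARS there over guides with T0 counts within 4-fold (count 1, fold change -2.11, adjusted p 0.0457). In 946 alternative values of 52 results, 781 kept their side of the threshold or stayed within the spread and 138 moved. A further 2 became calls, and 25 gene values with a p-value changed direction. Changes of sign in class differences, single library parts and means over guides were not counted among these 25. The cause of the changes was not tested.

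In DMSO against T0, leaving out 1 library gave medians of -1.12 to -0.61 (cytosolic) and -0.92 to -0.37 (mitochondrial), differences between the classes of -0.27 to 0.19, counts at an unadjusted p under 0.05 of 5 to 10 and 4 to 7 genes and of 12 to 24 and 5 to 18 guides, and 0 calls. In GSI against T0 these were -0.73 to -0.55, -0.55 to -0.24, -0.49 to -0.11, 3 to 8, 1 to 4, 10 to 29 and 4 to 19. In GSI against DMSO they were 0.02 to 0.20, 0.27 to 0.42, -0.32 to -0.14, 0 to 4, 1 to 4, 1 to 9 and 2 to 5.

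A mean count of at least 50 gave, in DMSO against T0, medians of -0.51 and -0.79 (difference 0.28) with 2 cytosolic and 3 mitochondrial genes at an unadjusted p under 0.05, in GSI against T0 a cytosolic median of -0.39 with 3 and 1 genes, and in GSI against DMSO 0 cytosolic genes and 1 mitochondrial guide. Guides with T0 counts within 4-fold gave, in DMSO against T0, -1.13 and -0.68 (difference -0.45), 2 mitochondrial genes and 29 cytosolic guides; in GSI against T0, a mitochondrial median of -0.27 (difference -0.49), 1 mitochondrial gene and 29 and 15 guides; in GSI against DMSO, a cytosolic median of 0.32 and 1 mitochondrial gene. Means over guides gave -1.11 and -0.95 in DMSO against T0 and a mitochondrial -0.62 in GSI against T0. Part A alone gave a mitochondrial -0.73 in DMSO against T0, and 0.45 and 0.48 in GSI against DMSO. Part B alone gave a cytosolic -0.57 (difference 0.18) in DMSO against T0, a mitochondrial -0.66 (difference 0.043) in GSI against T0 and a mitochondrial 0.10 in GSI against DMSO.

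DESeq2 gave 26 and 18 guides in DMSO against T0, 28 and 16 in GSI against T0, and 4 mitochondrial ones in GSI against DMSO. Scaling to controls gave 17 and 15 mitochondrial guides in the comparisons with T0 and 1 cytosolic guide in GSI against DMSO, as did library totals. A single fit of all 8 libraries gave 2 cytosolic and 5 mitochondrial genes and 1 cytosolic guide in GSI against DMSO.

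Same-numbered DMSO and GSI cultures had correlated deviations of 0.280, 0.0644 and 0.121, each the highest for its number, a hint from the data and not the design, so they share only a number. The replicate block gave, in DMSO against T0, a mitochondrial median of -0.85 (difference -0.046) and 7 and 7 guides; in GSI against T0, -0.13 (difference -0.54) and 5 and 1 guides; in GSI against DMSO, a mitochondrial median of 0.41 and 4 cytosolic guides. With it AIMP2 turned to -0.29 in DMSO against T0 and to 0.14 in GSI against T0, where GARS turned to -0.20 and AIMP1 to -0.15.

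Other gene values with a p-value changed direction too. In DMSO against T0 they were VARS (1.01, mean count of at least 50) and AIMP2 and RARS2 (-0.18 and -0.11, T0 counts within 4-fold). Without T0 replicate 1 they were GARS, AIMP2, EEF1E1 and RARS2 (0.16, -0.91, -0.12 and -0.02). Without DMSO replicate 2 they were AIMP2, EEF1E1, QARS and RARS2 (-0.35, -0.14, -0.61 and -0.23), and without DMSO replicate 3 AIMP2 (-0.28). In GSI against T0 they were AIMP1 and AIMP2 (-0.06 and 1.34 without T0 replicate 2), GARS and AIMP1 (-0.78 and -0.03 without GSI replicate 2), and GARS, AIMP1 and AIMP2 (-0.28, -0.10 and 0.09 without GSI replicate 3). AIMP2 in GSI against DMSO was 0.15 without DMSO replicate 2 and 0.00383 without GSI replicate 3. Values from single library parts and means over guides, here not relative to all genes, also changed direction. In DMSO against T0 part B alone gave VARS 0.86, GARS 0.48, AIMP1 -0.54 and AIMP2 -0.52. Part A alone gave QARS -1.73 and RARS2 -0.89. In GSI against T0 they were GARS and EEF1E1 (-0.19 and -0.67, part A) and AIMP1 (-0.82, part B). Means over guides did so for QARS and EEF1E1 (-0.51 and -0.12, DMSO against T0) and GARS and AIMP2 (-0.41 and 0.11, GSI against T0).

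Over all libraries left out in turn, gene values in DMSO against T0 reached from -0.91 to 1.66 for AIMP2, -0.14 to 0.43 for EEF1E1, -0.61 to 1.23 for QARS, -0.23 to 0.57 for RARS2 and -0.61 to 0.16 for GARS. In GSI against T0 they reached from -0.78 to 0.31 for GARS, -0.10 to 0.38 for AIMP1 and -1.08 to 1.34 for AIMP2, and in GSI against DMSO from -0.46 to 0.15 for AIMP2.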
